A study of Mus musculus with 6 samples.

Results

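The genes described here encode the enzymes that attach glucuronic acid or sulfate to small molecules in the mouse liver, together with the genes that make the donors of these groups. They were chosen as every gene on the array whose name starts with Ugt or Sult followed by a digit, plus Ugdh, Papss1 and Papss2. The rule gave 34 genes (15 Ugt, 16 Sult and 3 donor genes) with 43 probes, of 27376 gene names and 41174 probes that were not controls. For a gene with several probes, the one with the highest mean over the 6 arrays was used. A gene was tested where every array of either group read clearly over background, which held for 31 of the 34.

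Livers came from male BALB/c mice, 3 per group, described in the labels as independent animals. Treated mice were given microcystin-LR (MC-LR), a liver toxin of cyanobacteria that inhibits protein phosphatases, at 100 µg/L in their drinking water for 12 months, starting when they were 6 weeks old. Control mice had sterile water without the toxin over the same time. The series' title asks which liver genes differ after this exposure.

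UDP-glucuronosyltransferases (UGTs) are enzymes of the endoplasmic reticulum that move glucuronic acid from UDP-glucuronic acid onto bilirubin, steroids, bile acids, drugs and plant compounds. The Ugt1a enzymes come from a single locus in which alternative first exons are joined to shared later exons, whereas the Ugt2 enzymes mostly have genes of their own in a cluster. Sulfotransferases (SULTs) are mostly cytosolic and use the donor PAPS. Conjugates made by both families are more soluble and leave the hepatocyte through transporters.

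All 6 arrays were single-colour Agilent arrays, and 64.9% to 73.7% of their spots lay well above background, with 0 saturated. Values are the authors' normalized log2 signal, so a difference of 1 is a doubling. Across probes, Pearson's r between arrays was 0.982 to 0.993. Controls 1 and 2 were on slide 1, and control 3 lay on slide 2 with the 3 MC-LR arrays, so that slide as a block compares MC-LR in effect with control 3. Without control 3, slide and group cannot be told apart. Hepatocyte markers fitted the tissue label, with 9 of 9 measured markers above background and a median difference of 0.01 between the groups. Bulk liver cannot tell fewer cells of a type from less RNA per cell.

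Several probes cannot separate close relatives. Of the 34 probes used, 5 list another of these genes in the array's annotation, and the sequences of 3 are shown because results below rest on them, with 2 probes of Ugt2a1 whose values differed. They are 60 bases long, are given 5′ to 3′ in lower case, and are placed on the mm9 build by the file headers.
Ugt2b38 (chr5:87850627-87850686, minus strand): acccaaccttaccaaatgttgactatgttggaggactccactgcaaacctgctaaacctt
Ugt2b36 (chr5:87495455-87509913, minus strand, split over the interval): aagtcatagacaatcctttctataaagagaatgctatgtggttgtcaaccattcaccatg
Sult2a6 (chr7:14811313-14811372, minus strand): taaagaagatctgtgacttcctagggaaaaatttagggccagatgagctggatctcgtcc
Ugt2a1, probe used (chr5:87891129-87891943, minus strand, split): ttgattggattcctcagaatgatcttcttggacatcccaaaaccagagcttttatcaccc
Ugt2a1, another probe (chr5:87891964-87893097, minus strand, split): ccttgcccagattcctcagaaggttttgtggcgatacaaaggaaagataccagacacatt
The Ugt2b38 probe also lists Ugt2b37 and Ugt2b5, the Ugt2b36 probe lists Ugt2b37, and the Sult2a6 probe lists Sult2a1 and Sult2a3. Both Ugt2a1 probes also list Ugt2a2. The 3 split probes cover more of the genome than their own length, as a probe over an exon junction does. The Ugt1a6b probe lists 4 genes of the locus (Ugt1a6a, Ugt1a6b, Ugt1a7c and Ugt1a10), so its value is read as a sum over them.

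The Ugt2b genes share a stretch of DNA just before their start sites, shown because all 7 differed in the same direction. The sequences are from RefSeq on GRCm38.p6, and capitals mark a match to GTTANANNTTAAC, a pattern chosen after these sequences were seen.
Ugt2b1: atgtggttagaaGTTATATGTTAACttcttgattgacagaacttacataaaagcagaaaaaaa
Ugt2b34: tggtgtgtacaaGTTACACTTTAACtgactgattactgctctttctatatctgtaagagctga
Ugt2b35: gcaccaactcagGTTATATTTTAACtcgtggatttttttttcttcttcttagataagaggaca
Ugt2b36: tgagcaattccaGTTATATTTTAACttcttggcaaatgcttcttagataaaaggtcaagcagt
Ugt2b37: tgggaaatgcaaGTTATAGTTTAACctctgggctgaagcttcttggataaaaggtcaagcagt
Ugt2b38: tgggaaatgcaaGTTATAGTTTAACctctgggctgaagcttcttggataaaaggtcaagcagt
Ugt2b5: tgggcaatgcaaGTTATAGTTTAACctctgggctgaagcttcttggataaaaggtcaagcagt
The window of Ugt2b38 is chr5:87424217-87424279 and that of Ugt2b34 is chr5:86906960-86907022, both on the minus strand. Searched on both strands over the 250 bases before and 50 bases after each start, the pattern was found in 30 of 32851 mouse promoters (0.0913%), and among the 30 members with a promoter entry in the 7 Ugt2b genes and Ugt3a1. The 63 bases shown are identical in Ugt2b37 and Ugt2b38, and differ from Ugt2b5 at a single base, with 62 of 63 shared. Ugt2b1, Ugt2b34 and Ugt2b35 share 27 to 35 of 63 bases with any other of the 7. A second pattern, GTTAATNAT, part of the known binding site of the hepatocyte factor HNF1, was found in 263 promoters (0.801%). Among them were those of Ugt1a1, Ugt1a9, Sult1d1, Sult2a3, Sult2a4, Sult2a5 and Sult2a6 and 0 of the 7 Ugt2b genes. Both patterns start with GTTA and differ in a later fixed letter, so both cannot match at the same start on a strand. The count of 0 for GTTAATNAT therefore does not show that the Ugt2b promoters lack a site for HNF1. TTATGTAA, which the clock-driven PAR bZIP factors bind, was in 308 promoters (0.938%), and among these genes in that of Ugt2b1 alone. A match describes the letters in the window and was not tested for binding.

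At an unadjusted p under 0.05 the higher members were Ugt2a3, Ugt2b5, Ugt2b34, Ugt2b38, Sult1b1 and Sult1c2. None of the 31 tested members passed an adjusted p under 0.05 (limma, Benjamini-Hochberg over 18914 genes), where 0.0159% of all genes tested did, and the lowest adjusted p was 0.317, for Ugt2b38. These 6 of 31 members (19.4%) stand against 7.46% of all genes, and 0 were lower against 5.4%. With slide as a block 4 members were higher (7.91% of all genes) and 4 lower (8.14%), the latter Sult1e1, Sult2a3, Sult2a4 and Sult2a6. In slide 2 alone 2 were higher (5.92%) and the same 4 lower (6.24%). The 3 MC-LR arrays lay above the 3 controls for 6 members, a background of 11.2%, and below them for 1, a background of 9.2%. A difference above 0 was found for 20 of 31 members (64.5%) and 48.5% of all genes, and the median difference was 0.13 over the members and -0.01 over all genes. The unadjusted count changed with the array left out. It was 0 without MC-LR 1, 1 without control 1, 2 without MC-LR 3, 3 without control 2 and 10 without MC-LR 2. In the last of these fits Papss1 was lower. The share of all genes is not given for these fits, so the changes are not read as particular to the members. Without control 3 the count was 9, with 7 higher (10.6% of all genes) and 2 lower (10.2%). Sult1e1, Sult2a3, Ugt2b36 and Papss2 then entered among the higher genes, and Sult1b1, Sult1c2 and Ugt2a3 left. The entry of Sult2a3 rests on dim controls. It read 2.73 and 2.70 in controls 1 and 2, under the lowest values well above background on those arrays, 3.49 and 3.94.

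**Figure D1:**
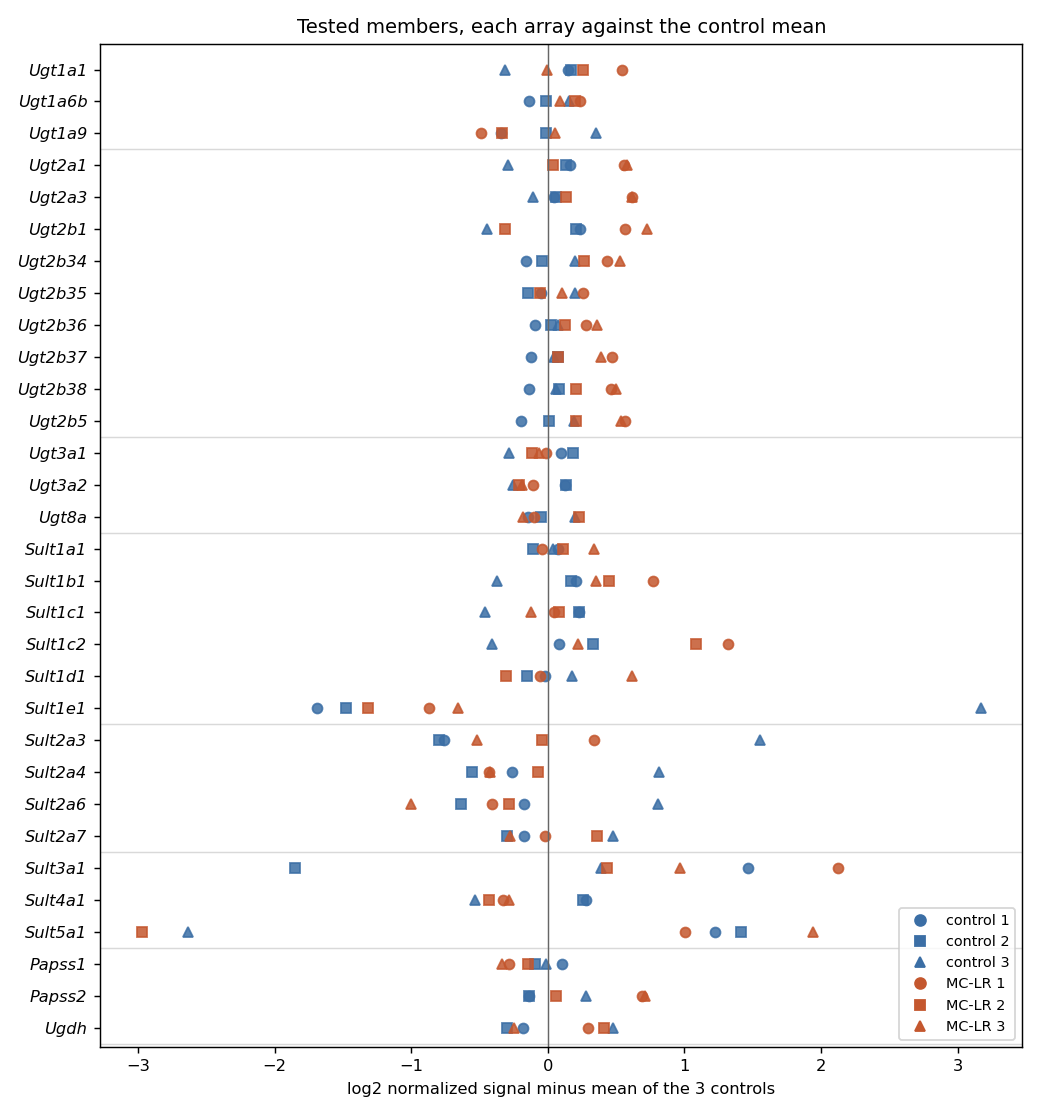
Each row is a tested member, ordered by family, and each point is an array, as log2 normalized signal minus the mean of the 3 controls (blue, control; orange, MC-LR; circle, square and triangle for replicates 1, 2 and 3). Most Ugt2 rows hold orange points to the right of 0, while Sult1e1, Sult5a1 and Sult3a1 spread far wider than the rest.

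All 9 Ugt2 genes had differences above 0. They lay between 0.10 and 0.45, with a median of 0.39. Of the 9, 4 were higher at an unadjusted p under 0.05 (7.46% of all genes) and 5 had the arrays of the groups apart (11.2% of all genes). With slide as a block, 0 of these 4 stayed under 0.05 and Ugt2a1 was the 1 Ugt2 gene to do so. The median was 0.27 with slide as a block and 0.33 without control 3. Because some of these probes list each other's genes, the 9 values are not separate counts of evidence.

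Ugt2b38 lies in the Ugt2b cluster on chromosome 5. Its log2 signal was 14.18, 14.40 and 14.37 in controls 1 to 3 and 14.77, 14.52 and 14.82 in MC-LR 1 to 3. All 3 MC-LR arrays were above all controls, with MC-LR 2 nearest to them. The difference was 0.39 ± 0.12 (SE, n = 3 per group), a 1.31-fold level (adjusted p = 0.317, limma), and it lay between 0.32 and 0.48 over the 17 other settings.

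Ugt2b34, a neighbour in the same cluster, read 11.44, 11.56 and 11.80 in controls and 12.03, 11.86 and 12.13 with MC-LR. The groups did not overlap, but control 3 came close to MC-LR 2. Its difference was 0.41 ± 0.13 (SE; adjusted p = 0.322, limma), and it was 0.21 with slide as a block.

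Ugt2b5 gave 14.60, 14.81 and 14.99 in controls and 15.37, 15.01 and 15.33 with MC-LR. The groups were apart by a small gap, between control 3 and MC-LR 2. The difference was 0.44 ± 0.15 (SE; adjusted p = 0.346, limma), or 0.25 with slide as a block.

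Ugt2a3, whose human counterpart acts on bile acids, had 13.41, 13.43 and 13.26 in controls and 13.99, 13.50 and 13.98 with MC-LR. MC-LR 1 and 3 were well above the controls, and MC-LR 2 was just above them. The difference was 0.45 ± 0.16 (SE), a 1.37-fold level (adjusted p = 0.346, limma), and it was 0.56 with slide as a block.

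Ugt2b36 read 15.17, 15.28 and 15.34 in controls and 15.54, 15.39 and 15.62 with MC-LR. The groups were apart, again with MC-LR 2 nearest to the controls, and the difference of 0.25 ± 0.11 (SE) had an adjusted p of 0.396 (limma). The Ugt2b37 values were 14.11, 14.31 and 14.28 in controls and 14.70, 14.31 and 14.62 with MC-LR. Here MC-LR 2 fell within the control range, and the difference was 0.31 ± 0.14 (SE; adjusted p = 0.414).

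Ugt2b1 is described because its mice differed most within the family, a choice made after its values were seen. It read 13.74, 13.72 and 13.07 in controls and 14.07, 13.19 and 14.23 with MC-LR. Control 3 and MC-LR 2 were both low, and the groups overlapped. The difference of 0.32 became 0.77 with slide as a block and 0.10 without control 3. Ugt2b35 had the smallest difference of the family, 0.10, and with slide as a block it was -0.09, the exception among the 9, as the other 8 were above 0 with all arrays and in the 17 other settings.

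Ugt2a1, best known from the nose, had 3 probes that did not move together. The probe used gave 10.68, 10.65 and 10.23 in controls and 11.08, 10.56 and 11.10 with MC-LR, a difference of 0.39 with overlapping groups. The neighbouring junction probe read 9.41, 9.38 and 9.45 in controls and 10.41, 9.86 and 10.46 with MC-LR. There the groups were apart and the difference was 0.83 ± 0.18 (SE; adjusted p = 0.234 with every probe as a feature, limma). The remaining probe differed by -0.19 ± 0.49 (SE). This comparison of probes was made after their values were seen.

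MC-LR 2 was the lowest of the MC-LR arrays in 9 of 9 Ugt2 genes. The lowest control was control 1 in 5 of them and control 3 in 3. MC-LR 2 was also lowest for Papss2 and for a probe annotated to Ugt1a6b alone. The share of all genes with MC-LR 2 lowest is not given, so this order is not read as particular to the family.

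**Figure D2:**
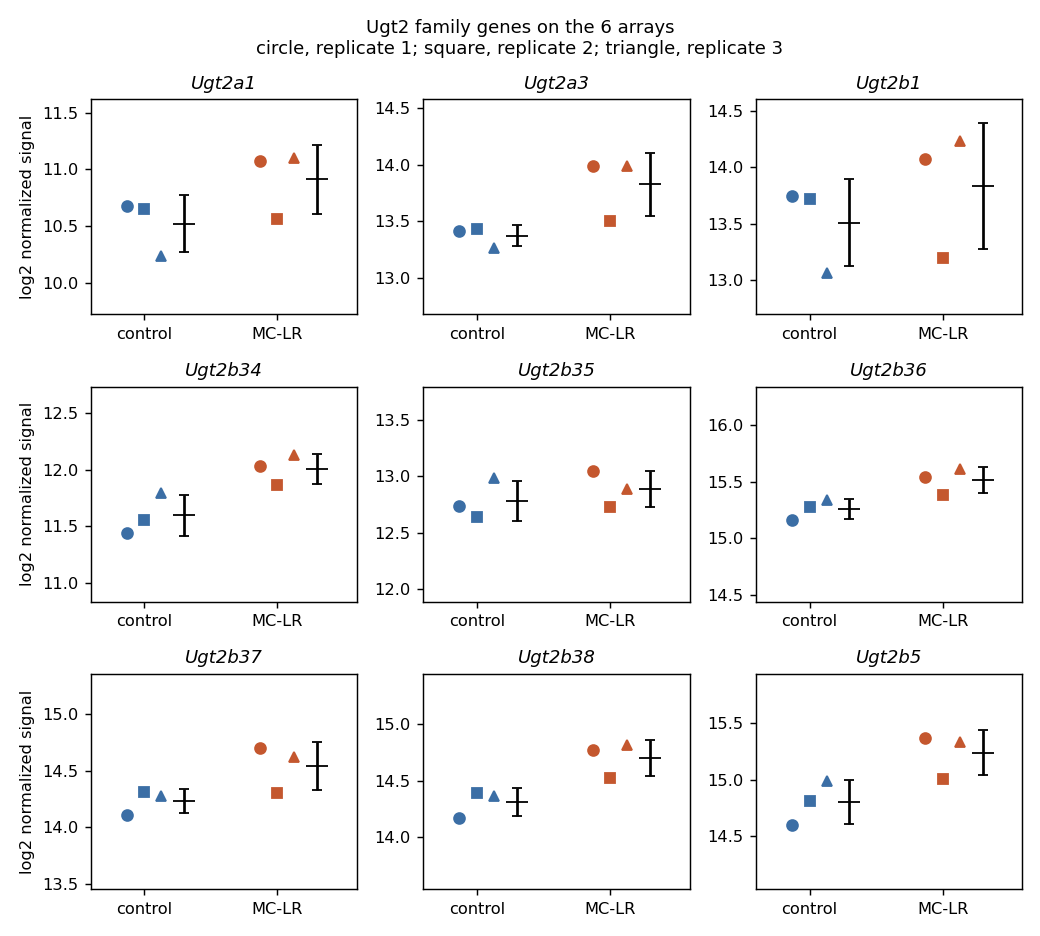
Log2 normalized signal of the 9 Ugt2 genes in each mouse (blue, control; orange, MC-LR), with the mean and SD of each group (n = 3) to the right of its points; each panel spans the same number of log2 units. The squares of MC-LR 2 lie lowest of the orange points in every panel.

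By the probes used, members of the Ugt1a locus had a smaller median difference than the Ugt2 genes. The shared-exon probe named Ugt1a6b read 16.26, 16.38 and 16.54 in controls and 16.63, 16.59 and 16.48 with MC-LR. Control 3 and MC-LR 3 overlapped, and the difference was 0.17 ± 0.11 (SE; adjusted p = 0.550, limma). A second probe, annotated to Ugt1a6b alone, read 8.81, 8.77 and 8.79 in controls and 9.19, 8.84 and 9.31 with MC-LR. Its groups were apart, with a difference of 0.32 ± 0.14 (SE; adjusted p = 0.411 with every probe as a feature, limma), within the range of the Ugt2 genes. Ugt1a1, the bilirubin-conjugating enzyme, differed by 0.26 ± 0.20 and Ugt1a9 by -0.26 ± 0.23 (SE). The family's median was 0.17, and 0.02 with slide as a block.

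The other 3 Ugt genes use donors other than UDP-glucuronic acid. Ugt3a2 read 15.06, 15.07 and 14.68 in controls and 14.83, 14.72 and 14.75 with MC-LR. Control 3 lay below the MC-LR arrays and controls 1 and 2 above them, so the difference of -0.17 ± 0.14 (SE) turned to 0.09 with slide as a block. Ugt3a1 followed the same order, with a difference of -0.07, -0.21 without control 3 and 0.22 with slide as a block. Ugt8a, the ceramide galactosyltransferase of myelin, differed by -0.02.

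Among the Sult1 genes, Sult1b1 and Sult1c2 had the lowest p-values. Sult1b1, which sulfates phenols and thyroid hormones, read 12.14, 12.10 and 11.56 in controls and 12.70, 12.38 and 12.29 with MC-LR. The groups were apart, and control 3 was the lowest array. The difference was 0.52 ± 0.20 (SE), a 1.44-fold level (adjusted p = 0.364, limma). A second probe gave 0.61 ± 0.24 (SE), and the main probe gave 0.89 with slide as a block and 0.34 without control 3.

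Sult1c2 read 9.78, 10.03 and 9.30 in controls and 11.02, 10.79 and 9.92 with MC-LR. MC-LR 1 and 2 were high, and MC-LR 3 lay within the control range. The difference was 0.87 ± 0.33 (SE), a 1.83-fold level (adjusted p = 0.364, limma). Sult1a1, the main phenol sulfotransferase of liver, differed by 0.13 ± 0.13, Sult1c1 by 0.00 ± 0.21 and the catecholamine enzyme Sult1d1 by 0.08 ± 0.25 (SE), all with overlapping groups. The median of the 6 Sult1 genes was 0.11.

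Sult1e1, the estrogen sulfotransferase, was set by a single mouse and was singled out after its values were seen. It read 9.12, 9.34 and 13.98 in controls and 9.94, 9.50 and 10.15 with MC-LR. Control 3 stood 4.75 above the mean of the other two controls, a 26.9-fold level, and above every MC-LR array, while controls 1 and 2 were below every MC-LR array. The difference was -0.95 ± 1.30 (SE; adjusted p = 0.789, limma). It was 0.63 ± 0.22 without control 3 (adjusted p = 0.201) and -4.12 ± 0.28 in the slide-blocked fit, where Sult1e1 was the one member to pass (adjusted p = 0.0352; range over all settings 0.0352 to 0.904). With the block, 0.0793% of all genes passed. That fit sets MC-LR against control 3 alone. Its SE and p do not count how far control 3 lies from the other controls (SD of the 3 controls 2.74), so the call rests on a single mouse.

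The hydroxysteroid sulfotransferases of the Sult2a group, which act on bile acids and steroids, were also highest in control 3. This held in 4 of 4 tested Sult2 genes, over all 6 arrays. Among the controls alone, control 3 was highest in 39.4% of all genes tested. Some of these probes list other Sult2a genes, so the 4 are not separate counts of evidence. Sult2a6 read 7.16, 6.70 and 8.14 in controls and 6.92, 7.05 and 6.33 with MC-LR. Its groups overlapped, and its difference was -0.56 ± 0.40 (SE; adjusted p = 0.584, limma), -1.37 with slide as a block and -0.16 without control 3.

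Sult2a3 and Sult2a4 were well above background on 1 control array each and on all 3 MC-LR arrays. Sult2a3 read 2.73, 2.70 and 5.05 in controls and 3.83, 3.45 and 2.98 with MC-LR, and Sult2a4 read 3.65, 3.36 and 4.72 in controls and 3.47, 3.84 and 3.49 with MC-LR. In both, control 3 was highest and the remaining arrays lay close to the background level. Sult2a7 differed by 0.02 ± 0.26 (SE), with control 3 again highest, at 10.75 against 10.09 and 9.97 in the other controls. The Sult2 median was -0.19, -1.25 with slide as a block and 0.18 without control 3.

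The dim members give no fold. Sult2b1, which sulfates cholesterol, was well above background on 1 of 3 control arrays and 0 of 3 MC-LR arrays. It read 3.55, 3.33 and 3.63 in controls and 2.10, 2.22 and 1.18 with MC-LR, values near the background level. Sult2a5 reached that level on 0 of the 6 arrays. Sult6b1 was above background on 1 MC-LR array and 0 control arrays.

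**Figure D3:**
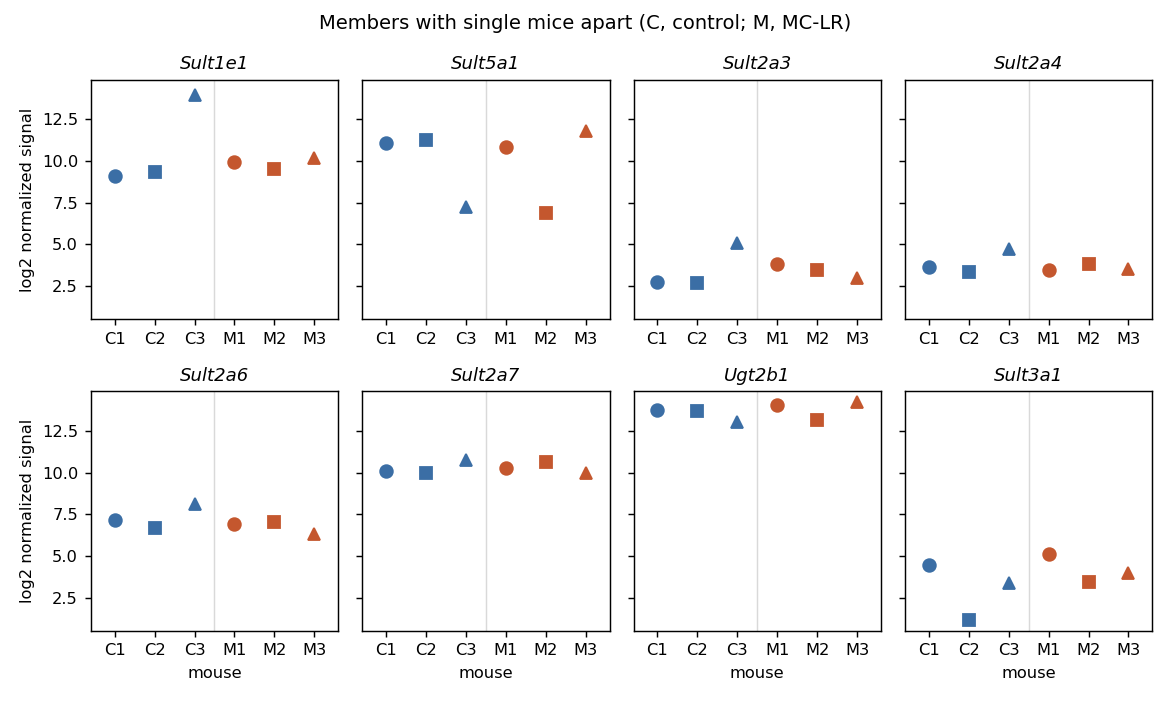
Log2 normalized signal of 8 genes in each mouse (C1 to C3, controls; M1 to M3, MC-LR; the vertical line divides the groups). Sult1e1 is high in control 3, the 4 Sult2a genes are highest there, and Sult5a1 is low in control 3 and MC-LR 2.

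Sult5a1, a sulfotransferase of little known substrate range, split the mice without regard to group and was singled out after its values were seen. Its probe lies in mm9 at chr8:125666951-125667010 on the minus strand.
Sult5a1: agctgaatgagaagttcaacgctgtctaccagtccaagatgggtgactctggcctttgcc
It read 11.07, 11.26 and 7.21 in controls and 10.85, 6.88 and 11.79 with MC-LR. Control 3 and MC-LR 2 were low by about the same amount, so the group difference was -0.01 ± 1.63 (SE). Its SD within groups, 2.45, was at the 99.96 percentile of all genes tested, and that of Sult1e1, 1.96, at the 99.9 percentile.

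Sult3a1 and Sult4a1 gave no stable difference. Sult3a1, a sulfotransferase of amines, read 4.47, 1.16 and 3.39 in controls and 5.13, 3.44 and 3.98 with MC-LR. Control 2 was not well above background, and the groups overlapped (difference 1.18 ± 0.90, SE). Sult4a1, known mainly from brain, read 6.37, 6.34 and 5.55 in controls and 5.76, 5.66 and 5.80 with MC-LR. Control 3 was below the MC-LR arrays and the other controls above them, so that the difference of -0.35 ± 0.24 (SE) was -0.61 without control 3 (adjusted p = 0.0740, range over all settings 0.0740 to 0.856) and 0.19 with slide as a block.

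Markers of other cell types also differed between these mice. Relative to the mean of each gene over the 6 arrays, control 3 had median values of 0.65 over 10 of 10 Kupffer cell and macrophage markers, 0.69 over 10 of 10 lymphocyte and neutrophil markers, and 0.72 over 8 of 10 bile duct markers. Bile duct markers also stood at 0.64 in MC-LR 2. The log2 summed level of the bile duct markers ran from 12.85 to 13.74 in controls and from 12.24 to 13.54 with MC-LR. That of the Kupffer cell markers ran from 15.55 to 16.26 and from 15.08 to 15.76, and that of lymphocyte and neutrophil markers from 13.32 to 14.14 and from 12.48 to 13.57. Between the groups, the median differences were -0.36 for endothelial, -0.28 for Kupffer cell, -0.34 for red cell and platelet, -0.24 for lymphocyte and neutrophil, -0.12 for bile duct and -0.11 for stellate cell markers. Without control 3 they were -0.43, -0.15, -0.34, -0.02, 0.20 and 0.08 in the same order, and with slide as a block -0.11, -0.80, 0.01, -0.88, -0.72 and -0.32. The part of these cells in the Sult1e1, Sult2a and Sult5a1 values was not tested. Male-biased liver genes, 8 tested with the members left out, stood at -0.68 in control 3 and between -0.08 and 0.22 in the other 5 mice, whereas the female-biased list of 8 genes was at -0.42 in control 3, below 0 in all controls and at 0.42 to 0.83 in the MC-LR mice.

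The donor genes did not move together. Papss1, which makes PAPS, read 9.20, 9.01 and 9.09 in controls and 8.82, 8.95 and 8.76 with MC-LR. All MC-LR arrays were below all controls, and the difference was -0.25 ± 0.10 (SE; adjusted p = 0.390, limma), between -0.31 and -0.20 over all settings. Papss2, the second PAPS synthase and the main form in liver, read 9.27, 9.27 and 9.69 in controls and 10.10, 9.47 and 10.12 with MC-LR. MC-LR 1 and 3 were above every control and MC-LR 2 was within their range, with a difference of 0.49 ± 0.22 (SE; adjusted p = 0.424). Ugdh, which makes UDP-glucuronic acid, read 13.99, 13.87 and 14.64 in controls and 14.46, 14.58 and 13.92 with MC-LR. Control 3 was the highest array, and the difference of 0.15 ± 0.27 (SE) was -0.32 with slide as a block and 0.39 without control 3.

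**Figure D4:**
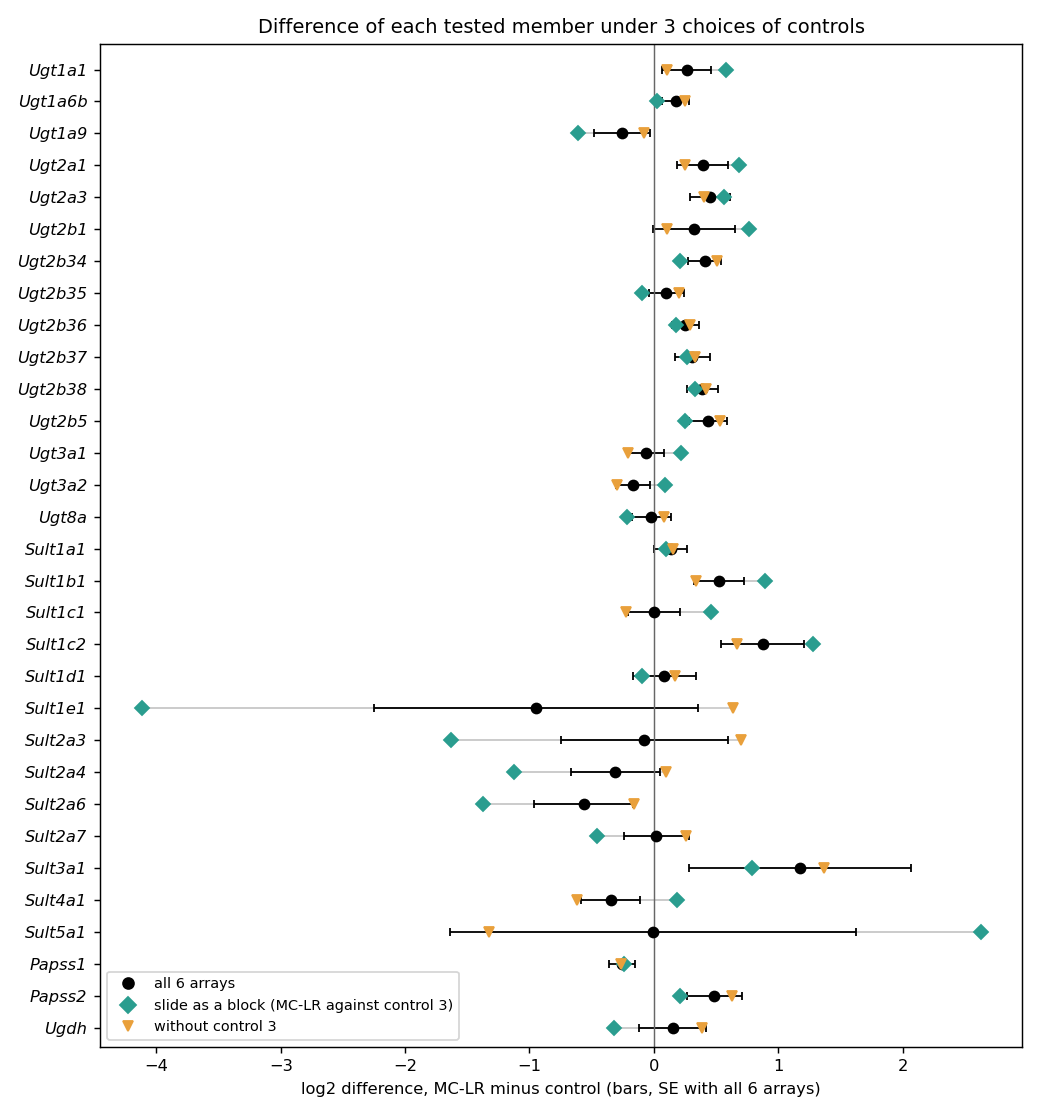
Log2 difference, MC-LR minus control, of each tested member with all 6 arrays (black, bar is the SE), with slide as a block, which compares MC-LR with control 3 (green), and without control 3 (orange). The 3 symbols lie on the same side of 0 for 8 of the 9 Ugt2 genes and far apart for Sult1e1, the Sult2a genes and Sult5a1.

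Genes around these enzymes were counted from lists of textbook members, chosen with earlier results of these data known. In these lists, 0 genes passed the adjusted threshold. Counts at an unadjusted p under 0.05 in these lists are to be set against 7.46% of all genes higher and 5.4% lower, and a list with 1 such gene lies near that share. Of 9 genes that supply UDP-glucuronate, 1 was higher at an unadjusted p under 0.05, and the median was 0.18. Ugp2, which makes UDP-glucose, differed by 0.36 ± 0.13 (SE). Of 13 genes for PAPS supply, 1 was higher (the sulfate transporter Slc13a4, 0.92 ± 0.23) and the median was 0.06. Of 12 hydrolases that remove such conjugates or support that step, 1 was higher (the sulfatase Arsa, 0.59 ± 0.22), with a median of 0.01. Of 18 other conjugating enzymes, 1 was higher (the methyltransferase Inmt, 1.37 ± 0.29), with a median of 0.11.

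A list of efflux and uptake transporters had differences above 0 in 11 of 13 genes, against 48.5% of all genes, with a median of 0.22. At an unadjusted p under 0.05, 2 were higher, Abcb1a at 1.34 ± 0.28 and Abcc6 at 0.46 ± 0.18 (SE). Abcb1a was dim, at 3.95, 4.43 and 4.99 in controls, though above background in 3 of 3 of them. Among 19 receptors and factors known to act on these families, 4 were higher and 1 lower, with a median of 0.09. Rxra, the partner of many nuclear receptors, differed by 0.54 ± 0.15 and the aryl hydrocarbon receptor Ahr by -0.37 ± 0.11 (SE).

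Of 15 clock genes and PAR bZIP factors, 9 were higher and 2 lower, against 7.46% and 5.4% of all genes, with a median of 1.14. Since this list and the sex-biased one below were chosen with earlier results known, their counts are not independent support. Hlf, a PAR bZIP factor, differed by 0.99 ± 0.16 (adjusted p = 0.172, limma), and the clock repressors Cry2 by 1.21 ± 0.21 and Bhlhe41 by 1.98 ± 0.38 (SE), the latter above background in 1 of 3 controls. Sex-biased liver genes outside these families had 7 higher and 0 lower of 16, of which 6 were in the female-biased list of 8 (median 1.34) and 1 in the male-biased list of 8 (median 0.30). The male-biased median was 0.03 without control 3 and 0.84 with slide as a block, and the female-biased one 1.20 and 1.15. Cyp2a4 differed by 1.45 ± 0.30 and Acot3, above background in 2 of 3 controls, by 3.36 ± 0.68 (SE).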

How the data were processed

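Each liver was hybridised to its own array. Per the submitters' processing notes, spot intensity in the deposited scanner files was extracted with Agilent Feature Extraction 10.7. The deposited table was made by the authors, per the series' design text, by quantile normalization in GeneSpring, and its values are on the log2 scale. Set against log2 of the same array's processed intensity, each column gave r between 0.998 and 1.000, and each had a median of 5.94, so it is not centred by gene. Quantile normalization gives every array the same distribution, so a shift of all genes cannot be seen. It was used because the choice of members names it.

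Groups came from the sample titles. A gene was tested if its probe had Agilent's well-above-background flag on every array of the controls, of the MC-LR group or of both (18914 genes). Two-sided p-values came from limma 3.58.1 (R 4.3.3; lmFit, then eBayes, with 4 residual and 2.04 prior degrees of freedom). They were adjusted by Benjamini-Hochberg over every gene tested, with 0.05 as threshold. The steps were tested on simulated data. They recovered 47.95% of genes changed by 1 and 81.25% of genes changed by 2, and 5.59% of calls were unchanged genes. Smaller changes, such as those of the Ugt2 genes, were not simulated.

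Members, lists and tests were chosen with earlier results of these data known. Per-array values are given for members with an unadjusted p under 0.05 or with groups apart, for the donor genes, and for the member with the smallest p in any other family, and up to 3 genes per list are named (some list members are not reported here); Sult1e1, Sult5a1, Ugt2b1, Ugt2a1, Ugt2b37, Sult3a1, Sult2a3, Sult2a4 and Sult2a7 were added after their values were seen. The names of 33 of 34 members equal the current RefSeq symbol. Promoters came from RefSeq tables of GRCm38.p6.

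Alternatives were scanner values with quantile or 75th percentile scaling, normexp (offset 50), other filters, the mean of a gene's probes, a random or fixed block for slide, slide 2 by itself, a replicate block, eBayes with trend and robust, an adjusted threshold of 0.1, and each array left out.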

Additional observations from a re-analysis of the deposited data

How the results depend on the processing

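Over 17 other settings, 18 of 31 tested members kept the sign of their difference. These settings are not all separate checks of sign. The filters, the replicate block and eBayes with trend leave a gene's difference unchanged, and slide as a block and slide 2 alone give the same difference. The count of all genes called, 3, was 1 under 75th percentile scaling, under normexp and with a filter on all 6 arrays, 5 with no filter, 15 with slide as a block, 0 in slide 2 alone and 1 to 50 with single arrays left out. Members called were 1 with slide as a block, a call that rests on control 3 alone, and 0 with any 1 array left out. At an adjusted threshold of 0.1 there was 1 without control 3, Sult4a1, and 0 with all arrays. Members at an unadjusted p under 0.05 numbered 10 under normexp and 0 to 10 with arrays left out. Members with groups apart numbered 24 in slide 2 alone, where a single control is left, and 8 to 15 with arrays left out. Groups of fewer arrays overlap less readily, and the share of all genes apart is not given for these settings. These counts are therefore not read as a stronger separation than the 7 members apart with all arrays. The replicate numbers were not read as pairs, since the labels describe independent animals. Deviations of same-numbered arrays correlated at 0.18, -0.32 and -0.19, and with a replicate block 0 genes were called. With so few arrays, neither result can decide whether the mice were paired.

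With slide as a block and in slide 2 alone, the medians were 0.023 (Ugt1a), 0.087 (other Ugt), 0.28 (Sult1), -1.25 (Sult2), 0.79 (other Sult) and -0.24 (donor genes). Sult1 was 0.18 under 75th percentile scaling and 0.049 to 0.26 with arrays left out, other Sult 1.01 with slide as a random block and -0.61 to 1.47, and donor genes 0.0048 to 0.39. Signs turned for Sult1e1 (0.63 without control 3; -1.79 to 0.63 with arrays left out), Sult4a1 (0.19) and Ugt3a2 (0.087) with slide as a block or alone, and Ugdh (-0.32 there, -0.048 with a random block). Sult5a1 turned under 75th percentile scaling (0.0024), with slide as a block or alone (2.63), as a random block (1.11), and without control 1 (0.60), control 2 (0.70) or MC-LR 2 (1.47), and ran from -1.33 to 1.47 with arrays left out. The cause was not tested. Dim probes (Sult2a3, Sult2a4, Sult2a5, Sult2b1, Sult3a1, Sult6b1 and Ugt8a) limit what can be read from their values.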

Other observations

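Genes outside these families shared the split of the mice seen for Sult5a1. They were looked up after that split was seen, by how closely their values followed or mirrored Sult5a1 over the 6 arrays, among 817 tested genes with a range above 2, and the 3 closest are given. H19, an imprinted noncoding RNA of fetal liver, read 6.54, 7.00 and 10.10 in controls and 6.55, 9.82 and 6.22 with MC-LR. It was high in control 3 and MC-LR 2, the same mice in which Sult5a1 was low. Tinag read 6.12, 6.67 and 9.44 in controls and 6.87, 9.29 and 6.18 with MC-LR, and Gipc2 read 4.66, 4.84 and 7.49 and 4.40, 6.87 and 4.07. All were high in the same pair of mice, 1 from each group, in which bile duct markers were also high.

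Genes that followed or mirrored Sult1e1 were looked up in the same way, and the 3 closest were each highest in control 3. Cd244, a receptor of immune cells, read 6.88, 7.10 and 9.57 in controls and 7.07, 7.33 and 7.56 with MC-LR. The chemokine gene Ccl4 read 7.87, 7.65 and 9.79 in controls and 8.26, 8.11 and 8.02 with MC-LR. Sycn, which encodes a protein of pancreatic secretory granules, read 7.93, 7.98 and 10.40 in controls and 7.82, 7.56 and 8.14 with MC-LR.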
